A study of Mus musculus with 24 samples.

Results

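UDP-glucuronosyltransferases (UGTs) attach glucuronic acid to bilirubin, bile acids, steroids and drugs, which makes these compounds soluble enough to leave the liver in bile or blood. The sugar is supplied as UDP-glucuronate, which UDP-glucose dehydrogenase (Ugdh) makes in the cytosol from UDP-glucose and which is carried into the endoplasmic reticulum, where the UGTs sit. In mice the Ugt1a enzymes come from 1 gene complex whose members have their own first exon and share the exons after it, whereas the Ugt2 enzymes come from a row of separate genes. NRF2, the transcription factor encoded by Nfe2l2, is known to raise Ugdh and several UGTs together with other genes of drug metabolism.

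The genes were taken as a named list of 10: Ugdh, 3 Ugt1a genes (Ugt1a1, Ugt1a6b, Ugt1a9) and 6 Ugt2 genes (Ugt2b1, Ugt2b5, Ugt2b34, Ugt2b35, Ugt2b36, Ugt2a3). Of these, 8 were among the 15160 genes of the count table, and all 8 passed the filter on low counts that kept 13336 genes. Ugt1a6b and Ugt1a9 were not analysed here.

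Liver RNA was measured in male mice labelled 5 months old, which began their diets at 8 weeks of age, are given as fed them for 8 weeks and were fasted for 4 h before tissue was taken. By the study's methods, a stay in calorimetry cages and a return to home cages came between those 8 weeks and the taking of tissue. The control diet (Con) held 0.86% methionine and the methionine-restricted diet (MR) 0.17%, and neither held cysteine. All mice were homozygous for the floxed Nfe2l2 allele. The mice labelled NRF2fl/fl carried no Cre and are called WT, whereas their littermates labelled NRF2fl/(alb) also carried Cre under the albumin promoter, which acts in hepatocytes, and are called NRF2 KO. Whether other liver cells kept the gene was not examined here. Each group had 6 mice. WT_CON_7604 and WT_MR_7612 were left out, as in the study. This left 5 mice in WT Con, 5 in WT MR, 6 in NRF2 KO Con and 6 in NRF2 KO MR. The libraries were of the QuantSeq kind, which reads each transcript near its 3′ end, and held from 6197291 to 22068338 counts (median 15019791.5) across the 22 mice. Levels are given as CPM, a gene's share of the library's counts, after scaling by TMM, which sets the total of each library by the bulk of its genes, and errors are the SD between mice.

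The tissue carried the hepatocyte markers Alb, Ttr, Apoa1, Cps1 and Cyp2e1, whose levels summed to 100222 ± 10891 CPM in WT Con and 80131 ± 5568 in WT MR (n = 5 each). They summed to 115512 ± 6288 CPM in NRF2 KO Con and 99530 ± 9344 in NRF2 KO MR (n = 6 each). Alb was the most abundant of them. In whole liver, fewer cells of a type and less RNA per cell cannot be told apart.

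By the study's methods Cre cuts out exon 5 of Nfe2l2 or a portion of it. In GENCODE M21 exon 5 is the last exon and holds the last 500 bases of the transcript, near which these libraries read. How much of the exon is removed is not given in the sources used here, so the 3′ reads do not show the deletion. The study's methods state that every mouse was genotyped by real-time PCR for loss of Nfe2l2 mRNA in the liver, a measurement not analysed here, and the groups are used as labelled. Nfe2l2 was at 158 ± 93.0 CPM in WT Con, 100.1 ± 4.94 in WT MR, 281 ± 43.9 in NRF2 KO Con and 226 ± 15.8 in NRF2 KO MR. Its 3′ reads were higher in NRF2 KO than in WT on Con (log2 fold change 0.83 ± 0.21, edgeR adjusted p = 0.0453) and on MR (1.18 ± 0.22, edgeR adjusted p = 0.00353). The call on Con held in only 2 of the 22 fits that left out 1 mouse, 1 of them that without the library labelled WT_CON_7607 (1.27 ± 0.10, edgeR adjusted p = 6.43e-09). The library labelled WT_CON_7607 stood apart, with 324 CPM against 106 to 125 in the other 4 WT Con mice and 228 to 339 in NRF2 KO Con. In that library 7 of the 8 genes lay below all other WT Con mice, and 3 of these (Ugdh, Ugt2b5 and Ugt2b36) lay inside the range of NRF2 KO Con. Ugt1a1 lay inside the range of both groups. The other 4 lay below all 6 NRF2 KO Con mice as well: Ugt2b35 at 18.9 CPM (24.7 to 33.4 in NRF2 KO Con), Ugt2b1 at 180.3 (185 to 391), Ugt2b34 at 206 (219 to 291) and Ugt2a3 at 232 (254 to 361). For Nfe2l2, Ugdh, Ugt2b5 and Ugt2b36 the values of this library go against its label, which by the study's methods was checked by PCR, and comparisons of the 8 genes that use WT Con are given with it and without it. For the other genes the value without it is given where it ends a call.

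Promoter sequences are shown for the genes that the results turn on, because several of them rose together on MR in WT and NRF2 binds the antioxidant response element, whose core is TGACNNNGC. They are from RefSeq on build GRCm38.p6, written 5′ to 3′ along the gene, and leave out bases that lie in an exon of GENCODE M21. Positions are counted back from the RefSeq start, with -1 as the last base before it. Capitals mark a match to TGACNNNGC in Ugdh, matches to GTTAAT, which is part of the HNF1 site, in Ugt2a3, and in Ugt2b36 and Ugt2b5 the longest run of bases that both windows share. Ugdh is shown from -250 to -108 (chr5:65435950-65436092, minus strand) and Ugt2b1 from -127 to -28 (chr5:86926531-86926630, minus strand). The last 100 bases before the start are shown for Ugt2b34 (chr5:86906938-86907037, minus), Ugt2b35 (chr5:87000760-87000859, plus), Ugt2b36 (chr5:87092556-87092655, minus), Ugt2b5 (chr5:87140341-87140440, minus) and Ugt2a3 (chr5:87337196-87337295, minus).
Ugdh: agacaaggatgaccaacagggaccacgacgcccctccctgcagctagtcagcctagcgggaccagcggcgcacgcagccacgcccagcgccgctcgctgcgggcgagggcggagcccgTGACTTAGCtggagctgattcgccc
Ugt2b34: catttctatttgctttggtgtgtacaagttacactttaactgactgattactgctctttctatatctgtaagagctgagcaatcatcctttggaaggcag
Ugt2b35: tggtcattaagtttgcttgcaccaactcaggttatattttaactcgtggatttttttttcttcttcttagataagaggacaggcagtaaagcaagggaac
Ugt2b36: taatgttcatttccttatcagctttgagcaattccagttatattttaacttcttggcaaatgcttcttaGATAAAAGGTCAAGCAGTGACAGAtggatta
Ugt2b5: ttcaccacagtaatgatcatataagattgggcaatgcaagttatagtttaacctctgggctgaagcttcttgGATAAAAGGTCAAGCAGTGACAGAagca
Ugt2b1: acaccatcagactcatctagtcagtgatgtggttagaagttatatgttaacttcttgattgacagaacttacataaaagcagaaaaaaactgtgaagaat
Ugt2a3: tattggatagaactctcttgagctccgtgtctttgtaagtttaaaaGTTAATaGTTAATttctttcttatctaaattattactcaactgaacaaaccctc

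The window from 250 bases before to 50 bases after the start was searched on both strands. Ugdh held 2 matches to TGACNNNGC, the TGACTTAGC shown at -132 to -124 and GCGTGGTCA, on the other strand, at -94 to -86, which lies in the first exon of Ugdh as GENCODE has it. The second match overlaps 1 of the 3 matches of Ugdh to GCGTG, the core of the xenobiotic response element that the receptor AHR binds. Of all 32851 promoters in the table, 12.4% held TGACNNNGC, 32.4% held GCGTG and 7.1% held GTTAAT. None of the Ugt1a and Ugt2 promoters searched held TGACNNNGC within this window. GTTAAT was found in Ugt1a1 (1 match), Ugt1a6a (1) and Ugt2a3 (2), and GCGTG among them in Ugt1a5 only. Shared runs were compared only among the 6 Ugt2 members. Ugt2b36 and Ugt2b5 shared 24 bases in a row, at -31 to -8 in Ugt2b36 and -28 to -5 in Ugt2b5. The longest run shared by any other pair of the 6 was 14 bases, in Ugt2b35 and Ugt2b36. The run of 24 bases is not particular to Ugt2b36 and Ugt2b5. Ugt2b37, a Ugt2 gene outside the 6, holds it in full before its start, and Ugt2b38 holds most of it. These are exact matches of letters, and no binding was measured. Forms that differ from them by a base were not counted, so a promoter without a match may still hold a variant of the site.

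The first question was whether MR changed these genes in WT liver. MR raised 5 of the 8 genes and lowered none: Ugdh and the Ugt2 genes Ugt2b34, Ugt2b35, Ugt2b36 and Ugt2b5 rose, by between 1.52-fold (Ugt2b36) and 2.75-fold (Ugdh). Ugt2b1, Ugt2a3 and Ugt1a1 did not pass the test. Calls rest on edgeR's quasi-likelihood F-test, with p adjusted over all genes tested by Benjamini-Hochberg and a threshold of 0.05. By that rule 6.91% of all genes were called higher and 6.91% lower. Without the library labelled WT_CON_7607 these shares were 5.68% and 5.39%, and the 5 genes were still called. In all 5 every MR mouse was above every Con mouse, as in 5.32% of all genes. Scaling by library size alone made 73.2% of the calls higher, against 50.0% with TMM. The median log2 fold change of the 8 genes was 0.64, beside -0.01 over all genes tested.

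Ugdh, the dehydrogenase that makes UDP-glucuronate, was at 106, 102, 80.7, 44.1 and 134 CPM in WT_CON_7602, WT_CON_7603, WT_CON_7605, WT_CON_7607 and WT_CON_7608. In WT_MR_7609, WT_MR_7611, WT_MR_7613, WT_MR_7615 and WT_MR_7616 it was at 247, 261, 325, 214 and 239 CPM. The lowest MR mouse was above the highest Con mouse, so the groups did not overlap. The log2 fold change was 1.46 ± 0.21 (SE of the model, n = 5 and 5; edgeR adjusted p = 0.000153) and 1.28 ± 0.16 without the library labelled WT_CON_7607 (edgeR adjusted p = 4.81e-05).

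Ugt2b35, a liver Ugt2b enzyme, was at 137, 116, 129.9, 18.9 and 131 CPM in the same 5 WT Con mice. In WT MR it was at 241, 239.6, 300.1, 221 and 218 CPM. The groups did not overlap, and the 4 Con mice other than WT_CON_7607 lay within 116 to 137 CPM. The log2 fold change was 1.20 ± 0.31 (edgeR adjusted p = 0.0151) and 0.93 ± 0.11 without that library (edgeR adjusted p = 2.01e-05). In a fit of only the 2 groups compared Ugt2b35 was not called (1.19 ± 0.44, edgeR adjusted p = 0.127).

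Ugt2b5, another liver Ugt2b enzyme, was at 587, 466, 507, 129 and 391 CPM in WT Con. In WT MR it was at 768, 902, 1116, 705 and 842 CPM. Every MR mouse was above every Con mouse, and the log2 fold change was 1.06 ± 0.27 (edgeR adjusted p = 0.0139), or 0.83 ± 0.17 without the library labelled WT_CON_7607 (edgeR adjusted p = 0.00322). In a fit of only the 2 groups compared Ugt2b5 was not called (1.06 ± 0.34, edgeR adjusted p = 0.0803).

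Ugt2b34 and Ugt2b36 rose by smaller folds, and their groups did not overlap either. Ugt2b34 lay between 206 and 341 CPM in WT Con and between 431 and 486 on MR, with a log2 fold change of 0.67 ± 0.10 (edgeR adjusted p = 0.000139). Ugt2b36 lay between 275 and 524 CPM in WT Con and between 542 and 824 on MR, with a log2 fold change of 0.61 ± 0.14 (edgeR adjusted p = 0.0062). Without the library labelled WT_CON_7607 these were 0.57 ± 0.08 and 0.48 ± 0.12.

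Ugt2b1, known for conjugating bisphenol A, was at 359, 370.3, 608, 180.3 and 386 CPM in WT Con and at 346, 341, 438, 355 and 368 CPM in WT MR. The MR mice lay inside the range of the Con mice, and the log2 fold change was -0.04 ± 0.24 (edgeR adjusted p = 0.935), with a sign that changed under scaling by library size alone. Ugt2a3, whose human counterpart conjugates bile acids, was at 269.7 ± 42.7 CPM in WT Con and 246 ± 32.2 on MR, with a log2 fold change of -0.13 ± 0.13 (edgeR adjusted p = 0.55). Without the library labelled WT_CON_7607 these were -0.22 ± 0.20 for Ugt2b1 and -0.18 ± 0.14 for Ugt2a3, neither called.

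**Figure D1:**
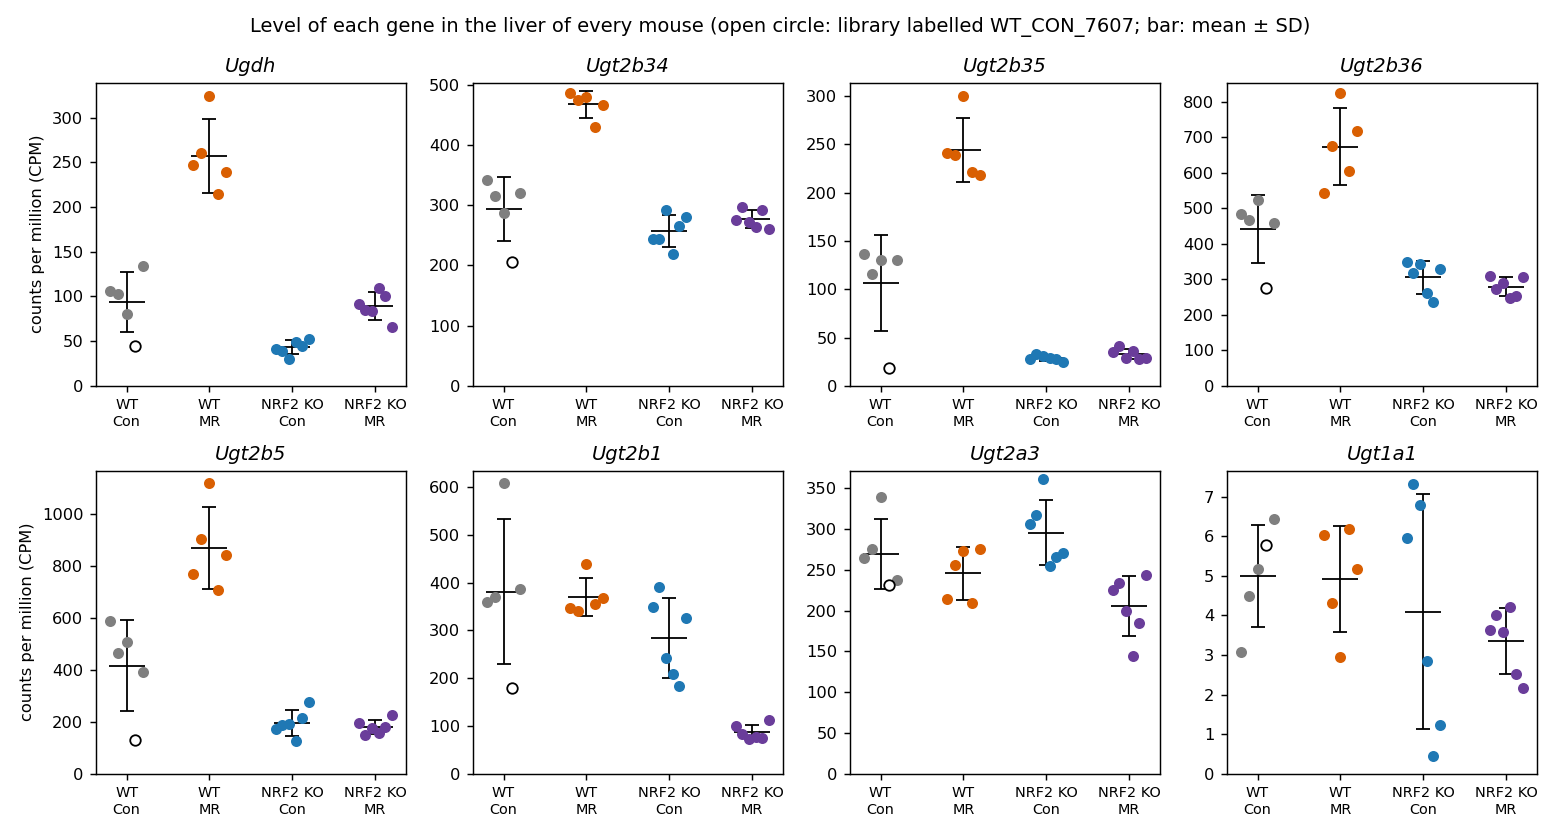
Level of the 8 genes in CPM (vertical axis, from 0) in each of the 22 mice, by group, with black bars for the mean and SD and an open circle for the library labelled WT_CON_7607. Ugdh, Ugt2b34, Ugt2b35, Ugt2b36 and Ugt2b5 are highest in WT MR, where no mouse overlaps WT Con, and Ugt2b1 is lowest in NRF2 KO MR, at 73.4 to 113 CPM.

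The second comparison asked what the same diet did in livers whose hepatocytes lacked NRF2. There MR raised 1 of the 8 genes, Ugdh, and lowered 2, Ugt2b1 and Ugt2a3. Over all genes tested 6.23% were called higher and 6.34% lower. The groups of these 3 genes did not overlap, which held for 2.62% of all genes with MR higher and for 2.83% with MR lower. The median log2 fold change of the 8 genes was -0.12, beside -0.0042 over all genes. Scaling by library size alone moved the median of all genes to 0.15 and made 86.1% of the calls higher, against 49.6% with TMM, and the same 3 genes were called under it.

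Ugdh rose from a lowest, median and highest value of 30.4, 42.9 and 52.5 CPM in NRF2 KO Con to 65.5, 88.4 and 109.8 CPM in NRF2 KO MR. The groups did not overlap, and the log2 fold change was 1.06 ± 0.19 (n = 6 and 6; edgeR adjusted p = 0.00139). The NRF2 KO mice on MR were at 89.3 ± 15.2 CPM, beside 93.6 ± 33.6 CPM in the WT mice on Con. Without the library labelled WT_CON_7607 the WT Con value was 105.9 ± 22.1 CPM (n = 4). This pair of groups was not tested.

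Ugt2b1 fell from 185, 283 and 391 CPM (lowest, median and highest) in NRF2 KO Con to 73.4, 80.5 and 113 CPM in NRF2 KO MR. Every MR mouse was below every Con mouse. The log2 fold change was -1.71 ± 0.22, a 3.26-fold lower level (edgeR adjusted p = 8.24e-05), and the call held in all 22 fits that left out 1 mouse.

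Ugt2a3 fell from 254, 288 and 361 CPM to 145, 212 and 244 CPM, again with no overlap. Its log2 fold change was -0.53 ± 0.12 (edgeR adjusted p = 0.00529). The 4 Ugt2 genes that rose in WT gave log2 fold changes of 0.10 ± 0.09 (Ugt2b34), 0.19 ± 0.29 (Ugt2b35), -0.13 ± 0.13 (Ugt2b36) and -0.11 ± 0.25 (Ugt2b5) in NRF2 KO. None of these passed the test, with edgeR adjusted p between 0.518 and 0.821, and the signs of Ugt2b36 and Ugt2b5 changed under scaling by library size alone.

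Whether MR acted differently in the 2 genotypes was tested as the interaction of diet and genotype. No gene of the 8 was called for it by edgeR, beside 0.045% of all genes. At an unadjusted p under 0.05 there were 6 of the 8, beside 7.56% of all genes, and DESeq2 called 2, Ugt2b1 and Ugt2b34, beside 0.262% of all genes. All 8 estimates were negative in the edgeR fit, with a median of -0.65. Ugt2b1 had the largest, -1.66 ± 0.32 (edgeR adjusted p = 0.0638). Without the library labelled WT_CON_7607 edgeR called Ugt2b1 (-1.49 ± 0.27, adjusted p = 0.0351) and Ugt2b35 (-0.74 ± 0.15, adjusted p = 0.0498), beside 0.0893% of all genes. Ugt2b1 was also called without mouse WT_CON_7605 (adjusted p = 0.00925), KO_CON_7622 (0.03) or KO_MR_7632 (0.0466) in edgeR. For Ugdh the interaction was -0.40 ± 0.28 (edgeR adjusted p = 0.791), or -0.22 ± 0.21 with the library labelled WT_CON_7607 left out (edgeR adjusted p = 0.913), so a difference between the genotypes in its rise was not shown. The other 5 were not called with that library or without it. With it and then without it, Ugt2b5 gave -1.17 ± 0.37 and -0.94 ± 0.23, Ugt2b36 -0.74 ± 0.19 and -0.61 ± 0.16, and Ugt2b34 -0.57 ± 0.14 and -0.46 ± 0.11. In the same order Ugt2a3 gave -0.39 ± 0.18 and -0.35 ± 0.18 and Ugt1a1 -0.30 ± 0.58 and -0.35 ± 0.61, and Ugt2b35 with that library gave -1.01 ± 0.42.

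**Figure D2:**
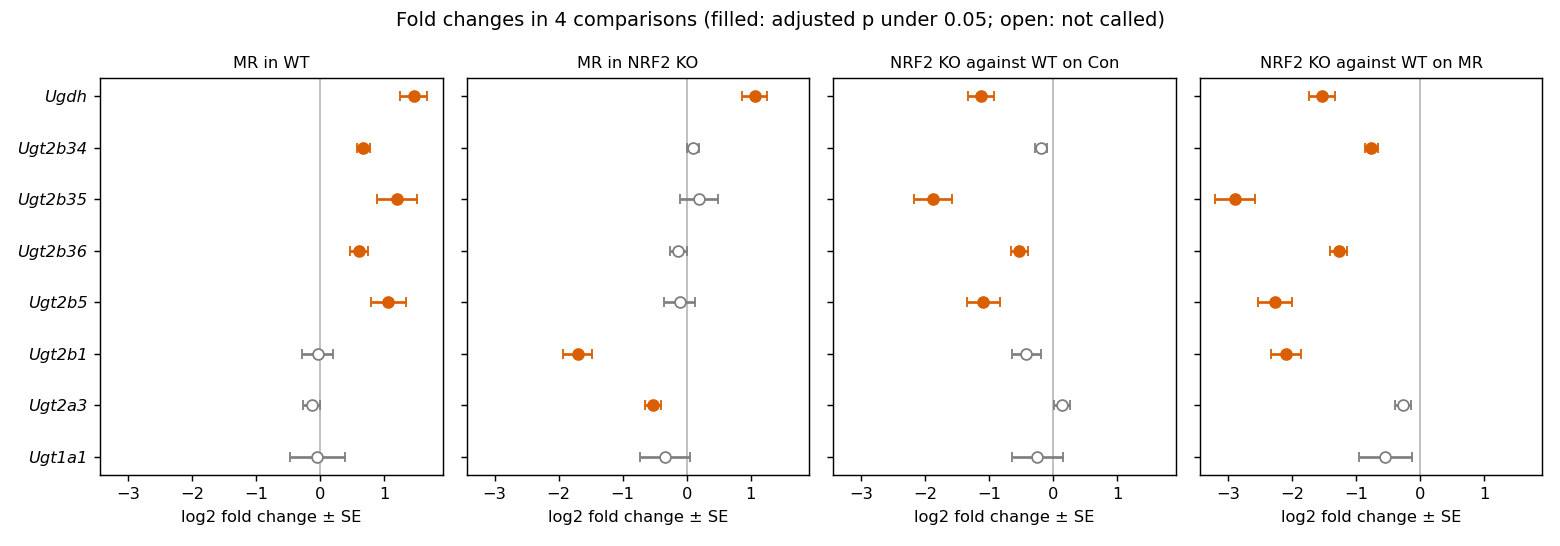
Log2 fold change with its SE (horizontal axis) of the 8 genes in 4 comparisons, with filled points for genes called at an adjusted p under 0.05. MR raised 5 genes in WT and Ugdh alone in NRF2 KO, and all points that passed the test in the comparisons of NRF2 KO with WT lie below 0.

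The third question was what loss of hepatocyte NRF2 did on the Con diet. There 4 of the 8 genes were lower in NRF2 KO, namely Ugdh, Ugt2b35, Ugt2b36 and Ugt2b5, and none was higher. Over all genes 1.27% were called lower and 0.802% higher, so that 38.8% of the calls were higher, against 27.6% under scaling by library size alone. Without the library labelled WT_CON_7607, Ugt2b34 was called lower too (log2 fold change -0.30 ± 0.08, edgeR adjusted p = 0.041, against -0.19 ± 0.10 and 0.381 with it), which made 5 of 8, beside 1.5% of all genes lower and 0.833% higher.

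Ugt2b35 differed most, at 106 ± 49.5 CPM in WT Con against 28.9 ± 3.07 in NRF2 KO Con. The 4 WT mice other than WT_CON_7607 lay at 116 to 137 CPM and the NRF2 KO mice at 24.7 to 33.4, with WT_CON_7607 below both. The log2 fold change was -1.88 ± 0.30 (edgeR adjusted p = 0.00212) and -2.15 ± 0.11 without that library (edgeR adjusted p = 2e-12). In a fit of only the 2 groups compared Ugt2b35 was not called (-1.87 ± 0.39, edgeR adjusted p = 0.0628). Ugdh was at 42.9 ± 7.83 CPM in NRF2 KO Con against 93.6 ± 33.6 in WT Con, a log2 fold change of -1.13 ± 0.20 (edgeR adjusted p = 0.00432), or -1.31 ± 0.15 without that library, and its groups overlapped only through WT_CON_7607.

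Ugt2b5 was at 195 ± 49.5 CPM in NRF2 KO Con against 416 ± 175 in WT Con, a log2 fold change of -1.10 ± 0.26 (edgeR adjusted p = 0.029). Ugt2b36 was at 306 ± 46.5 against 441 ± 96.4 CPM, a log2 fold change of -0.53 ± 0.14 (edgeR adjusted p = 0.0385). Both calls were weak with the library labelled WT_CON_7607 in the fit: that of Ugt2b5 was lost in 7 of the 22 fits that left out 1 mouse (WT_CON_7602, WT_CON_7603, WT_CON_7605, KO_CON_7617, KO_CON_7618, KO_CON_7620 or KO_CON_7621, with edgeR adjusted p from 0.0537 to 0.0808). That of Ugt2b36 was lost in 8 (WT_CON_7602, WT_CON_7603, WT_CON_7605, WT_CON_7608, KO_CON_7618, KO_CON_7621, KO_CON_7622 or KO_CON_7623, with edgeR adjusted p from 0.0540 to 0.0883). Without that library they were -1.33 ± 0.16 (edgeR adjusted p = 2.24e-05) and -0.66 ± 0.11 (edgeR adjusted p = 0.00129). In a fit of only the 2 groups compared, which kept that library, neither gene was called (edgeR adjusted p = 0.187 and 0.157). Ugt2b1, Ugt2a3 and Ugt1a1 had log2 fold changes of -0.43 ± 0.23, 0.13 ± 0.13 and -0.25 ± 0.40 and were not called, nor were they without that library (-0.60 ± 0.19, 0.08 ± 0.13 and -0.19 ± 0.44).

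The fourth comparison set the genotypes against each other on MR. Of the 8 genes, 6 were lower in NRF2 KO MR than in WT MR and none was higher, against 1.38% of all genes lower and 0.555% higher. The 6 were Ugdh and all Ugt2 members but Ugt2a3, and for each of them every NRF2 KO mouse was below every WT mouse, as in 2.91% of all genes. The means compared here include no WT Con library, but the fit estimates the spread between mice from all 4 groups. Without the library labelled WT_CON_7607 the SE of Ugt2b35 went from 0.31 to 0.11. All 6 calls held in each of the 22 fits that left out 1 mouse. This comparison shares the WT MR mice with that of MR in WT and the NRF2 KO MR mice with that of MR in NRF2 KO.

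Ugt2b35 was at 244 ± 33.1 CPM in WT MR and at a lowest, median and highest value of 28.2, 31.9 and 40.9 CPM in NRF2 KO MR, a 7.39-fold lower level (log2 fold change -2.89 ± 0.31, edgeR adjusted p = 1.31e-05). Ugt2b5 was at 867 ± 158 CPM against 149.6, 177 and 225 CPM, 4.81-fold lower (-2.27 ± 0.26, edgeR adjusted p = 2.44e-05). Ugt2b1 was at 369.9 ± 39.7 against 86.9 ± 15.8 CPM, 4.26-fold lower (-2.09 ± 0.23, edgeR adjusted p = 1.31e-05). These 3 genes thus differed more than 4-fold between the genotypes.

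Ugdh was 2.88-fold lower in NRF2 KO MR, at 89.3 ± 15.2 CPM (-1.53 ± 0.20, edgeR adjusted p = 8.54e-05). Ugt2b36 was 2.41-fold lower (-1.27 ± 0.14, edgeR adjusted p = 2.2e-06) and Ugt2b34 1.69-fold lower (-0.76 ± 0.10, edgeR adjusted p = 2.44e-05). Ugt2a3 was at 205 ± 36.8 against 246 ± 32.2 CPM and was not called (-0.26 ± 0.13, edgeR adjusted p = 0.357).

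The Ugt2 genes lie side by side on chromosome 5, over 517.3 kb from the transcript start of Ugt2b34 to that of Ugt2b38 in GENCODE M21 on GRCm38. All are read on the minus strand except Ugt2b35, on the plus strand. The 5 Ugt2 members that were lower in NRF2 KO MR were the first 5 of the row: Ugt2b34 (86889767 to 86906937), Ugt2b1 (86916638 to 86926530), Ugt2b35 (87000860 to 87013275), Ugt2b36 (87065927 to 87092555) and Ugt2b5 (87124960 to 87140318). Ugt2a3 (87324972 to 87337195) lies 430.3 kb from the first start, between Ugt2b37 and Ugt2b38, which are UGT genes outside the list of 10. Neighbours in the row could give unlike values: Ugt2b1, 19.6 kb from Ugt2b34, gave a log2 fold change of -0.04 on MR in WT, where Ugt2b34 gave 0.67, a difference between genes that was not tested.

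**Figure D3:**
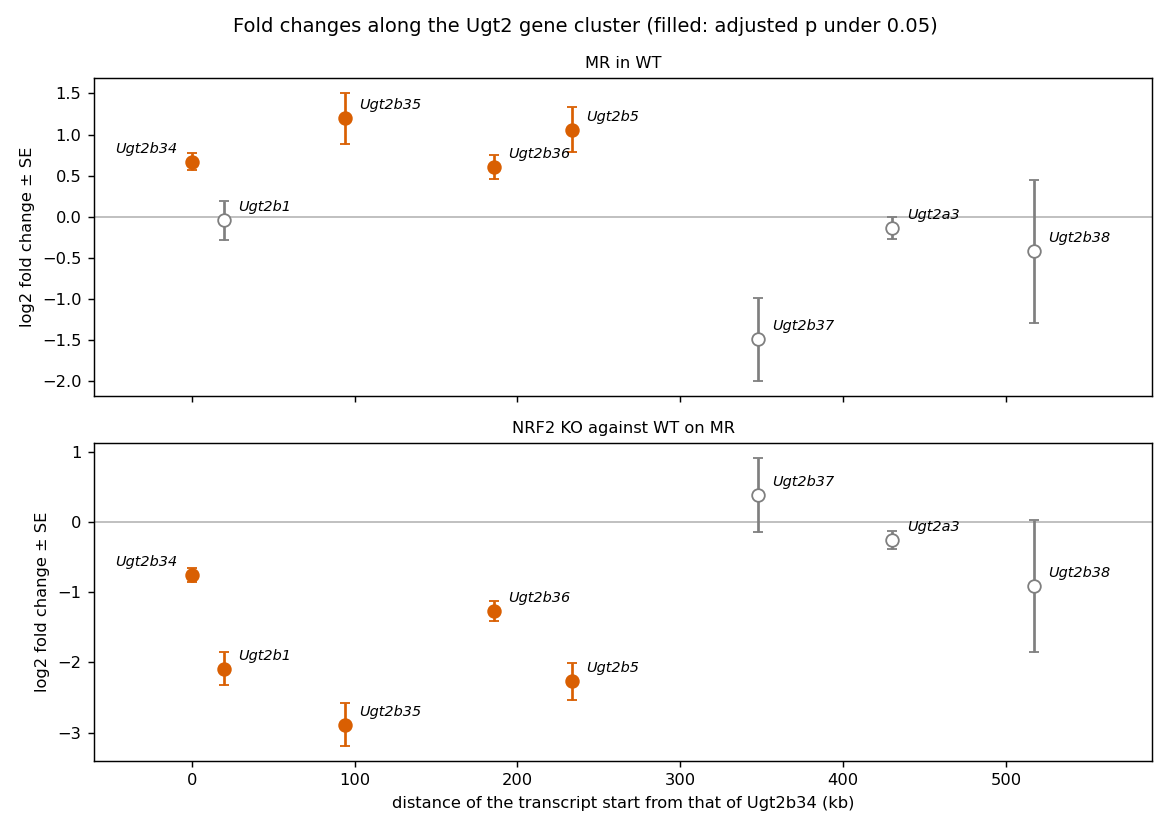
Log2 fold change with its SE (vertical axis) of the 8 Ugt2 genes of the table by distance of their transcript start from that of Ugt2b34 in kb (horizontal axis), for MR in WT above and NRF2 KO against WT on MR below, with filled points for genes called. In the lower panel the 5 genes from 0 to 233.4 kb are called lower and the 3 from 347.9 kb on are not called. Of these 3, Ugt2b37 and Ugt2b38 had few reads (0.79 and 0.82 CPM in WT MR), and only Ugt2a3 had many.

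Ugt2b37 and Ugt2b38 were at 2.33 ± 0.69 and 1.11 ± 0.58 CPM in WT Con. Neither was called in any comparison by edgeR with TMM and all 22 mice. Ugt2b37 came closest, on MR in WT (-1.49 ± 0.51, edgeR adjusted p = 0.0533), where DESeq2 called it. EdgeR called it there with all 24 mice (adjusted p = 0.0188), and in 6 of the 22 fits that left out 1 mouse. Ugt2b38 was called on MR in NRF2 KO in 1 of these fits, that without mouse KO_MR_7632. There its log2 fold change was -3.66, against -1.93 ± 0.81 with all 22 mice. Ugt3a2, a UGT outside both families, was at 134 ± 49.8 CPM in WT Con and 162 ± 14.0 in WT MR. Of the 6 tested UGT genes outside the list of 10, edgeR with TMM and all 22 mice called 0 in each comparison. Between 0 and 2 of them had an unadjusted p under 0.05. Scaling by library size alone called 1 of them for MR in NRF2 KO. A fit of only the 2 groups compared called 1 for MR in WT and 1 for NRF2 KO on MR, and limma 1 for MR in each genotype. The ends of these genes can be told apart in most part. Of 451 runs of 50 bases in the last 500 bases of the transcript, 14 of Ugt2b5 also occur in Ugt2b37, and no such run of the other 5 Ugt2 members occurs in another gene. Over the whole transcript Ugt2b5 was 94.0% identical to Ugt2b38 and 85.4% to Ugt2b36, and Ugt2b35 was at most 61.3% identical to another Ugt2 gene of the table. Summed over the 8 Ugt2 genes, reads were at 1911 ± 517 CPM in WT Con, 2868 ± 358 in WT MR, 1369.5 ± 175 in NRF2 KO Con and 1063 ± 91.7 in NRF2 KO MR. The WT Con value was 2128 ± 207 without the library labelled WT_CON_7607 (n = 4).

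The Ugt1a genes are given apart, since their reads cannot be assigned with certainty. Ugt1a1, the bilirubin-conjugating enzyme, lies at 88211959 to 88218997 on the plus strand of chromosome 1, and its last exon (exon 5, from 88218127 to 88218997) is also an exon of 8 other Ugt1a genes. All 451 runs of 50 bases at its 3′ end occur in those genes. The sources used here do not say how reads that fit several genes were counted. The table held 4 rows of the complex, Ugt1a1, Ugt1a5, Ugt1a6a and Ugt1a7c, and of these the end of Ugt1a7c in GENCODE is its own.

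Ugt1a1 was at 4.99 ± 1.29 CPM in WT Con, 4.93 ± 1.34 in WT MR, 4.10 ± 2.97 in NRF2 KO Con and 3.36 ± 0.825 in NRF2 KO MR, from 5 to 153 reads a mouse. It was called in no comparison (edgeR adjusted p from 0.622 to 0.965), and the NRF2 KO Con mice alone spread from 0.454 to 7.32 CPM. Nor were the other 3 rows called in any comparison by edgeR with TMM and all 22 mice. Ugt1a7c, the row with an end of its own, was at 3.51 ± 0.79 CPM in WT Con, 4.75 ± 1.14 in WT MR, 2.80 ± 0.89 in NRF2 KO Con and 3.11 ± 0.63 in NRF2 KO MR, with a log2 fold change of -0.59 ± 0.21 for NRF2 KO on MR (edgeR adjusted p = 0.149). Ugt1a5 was at 3.01 ± 1.57, 2.08 ± 0.81, 2.54 ± 1.66 and 5.50 ± 2.55 CPM in the same order, and gave 1.47 ± 0.45 for NRF2 KO on MR (edgeR adjusted p = 0.101) and 1.10 ± 0.40 for MR in NRF2 KO (edgeR adjusted p = 0.0762), the latter called in 2 of the 22 fits that left out 1 mouse. The sum of the 4 rows, which does not depend on how reads were split among these 4, was at 13.8 ± 2.65, 14.9 ± 3.48, 11.98 ± 3.60 and 14.9 ± 3.50 CPM in the same order of groups. The sum does depend on whether reads that fit several genes were dropped or given to Ugt1a genes without a row, which is not known. Its log2 fold changes were 0.09 ± 0.22 (MR in WT), 0.30 ± 0.20 (MR in NRF2 KO), -0.20 ± 0.21 (NRF2 KO on Con) and 0.01 ± 0.21 (NRF2 KO on MR). None was called, with edgeR adjusted p from 0.346 to 0.992. The sum rests on 70 to 423 reads a mouse. With the library labelled WT_CON_7607 left out, MR in WT gave 0.12 ± 0.24 and NRF2 KO on Con -0.17 ± 0.23 for the sum, and MR in WT gave 0.01 ± 0.46 for Ugt1a1. For MR in WT the 95% interval of this sum ran from -0.34 to 0.53, and for MR in NRF2 KO from -0.09 to 0.70.

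How alike the genes were is given as correlations of log2 CPM over the 22 mice, a description with no p, since all points share the differences between the groups and each pair shares its library. Ugt2b5, Ugt2b34, Ugt2b35 and Ugt2b36 gave Pearson r between 0.862 and 0.956 with each other, and between 0.766 and 0.892 with Ugdh. Ugt2a3 gave -0.34 with Ugdh and 0.668 with Ugt2b1. The 3 genes outside the UGT family most like Ugdh were Htatip2 (r = 0.976), Ephx1 (0.97), the microsomal epoxide hydrolase, and Arpp19 (0.969). Ephx1 was at 204 ± 70.1 CPM in WT Con, 546 ± 55.5 in WT MR, 85.3 ± 16.8 in NRF2 KO Con and 162 ± 16.8 in NRF2 KO MR. Those most like Ugt2b36, taken as the Ugt2 member with the most reads over these mice (in WT MR alone Ugt2b5 had more), were Gm18635 (0.931), the carboxylesterase Ces1f (0.928) and Gclc (0.92), the catalytic subunit of glutamate-cysteine ligase. Those most like the summed Ugt1a rows were Coro7 (0.812), Ptprb (0.812) and Arhgap5 (0.809).

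The genes around glucuronidation were read from lists. Of 6 genes of UDP-glucuronate supply, 2 rose on MR in WT: Ugdh and Slc35d1, the carrier that takes UDP-glucuronate into the endoplasmic reticulum. Uxs1, which turns UDP-glucuronate into UDP-xylose, fell (-0.36 ± 0.12, edgeR adjusted p = 0.0371), a call lost without the library labelled WT_CON_7607 (adjusted p = 0.0899). Slc35d1 was at 164 ± 30.6 CPM in WT Con and 325 ± 34.4 in WT MR (0.98 ± 0.11, edgeR adjusted p = 4.63e-06). In NRF2 KO it was at 138 ± 12.004 CPM on Con and 164 ± 13.5 on MR (0.25 ± 0.10, edgeR adjusted p = 0.0987, or 0.0435 without the library labelled WT_CON_7607). Its interaction was -0.73 ± 0.15 (edgeR adjusted p = 0.0638, or 0.0422 without that library), and DESeq2 called it. In the NRF2 KO mice Ugdh rose, and Ugp2, which makes UDP-glucose, fell (-0.57 ± 0.18, edgeR adjusted p = 0.0415). On MR, Ugdh and Slc35d1 (-0.99 ± 0.10, edgeR adjusted p = 2.11e-06) were lower in NRF2 KO than in WT.

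Of the 9 transporters of glucuronides, 3 rose on MR in WT (Abcc2, Abcc4, Slco1a4) and Slco1a1 fell. Abcc4, an exporter of the blood side, changed most, from 2.58 ± 0.49 to 24.4 ± 8.96 CPM in WT (3.22 ± 0.26, edgeR adjusted p = 3.67e-08). In NRF2 KO it was at 2.67 ± 0.324 and 4.10 ± 1.64 CPM (0.62 ± 0.25, edgeR adjusted p = 0.1), and the interaction was called (-2.60 ± 0.35, edgeR adjusted p = 0.00197). Abcc2, the exporter of the bile side, rose by 0.37 ± 0.12 (edgeR adjusted p = 0.0337), a call lost without the library labelled WT_CON_7607 (adjusted p = 0.0936), as was that of Slco1a1 (0.0762). On MR in NRF2 KO, Slco1a4 rose (0.90 ± 0.23, edgeR adjusted p = 0.0133) and Slco1a1 fell (-2.22 ± 0.70, edgeR adjusted p = 0.0439). Abcg2, an exporter of the bile side, fell there too (-0.68 ± 0.08, edgeR adjusted p = 7.32e-06) and was called for the interaction (adjusted p = 0.0229). Abcc3, an exporter of the blood side, was lower in NRF2 KO on both diets (-1.59 ± 0.32 on Con and -2.35 ± 0.32 on MR), and Abcc4 and Abcg2 were lower on MR (-2.55 ± 0.23 and -0.87 ± 0.08).

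**Figure D4:**
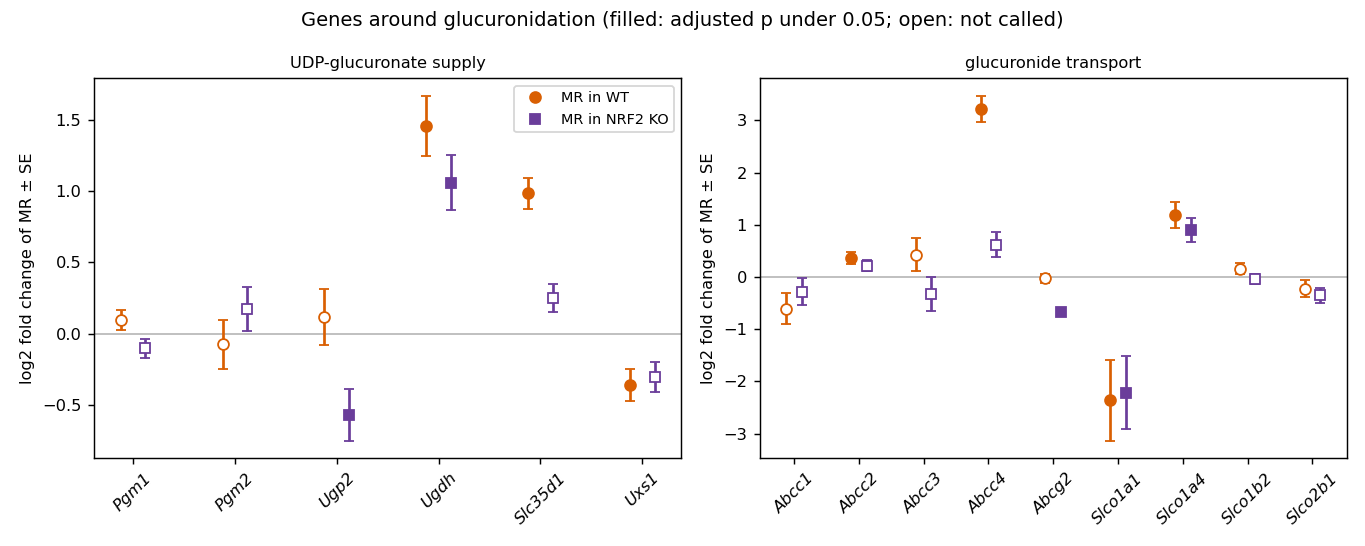
Log2 fold change on MR with its SE (vertical axis) of 6 genes of UDP-glucuronate supply and the 9 transporters, in WT (circles) and NRF2 KO (squares), with filled points for genes called. The points of Slc35d1 and Abcc4 are filled in WT and open in NRF2 KO, and those of Ugdh, Slco1a4 and Slco1a1 are filled in both genotypes.

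Of 15 tested genes of glucuronate and pentose interconversion, Akr1a1, Xylb and Akr1b7 rose on MR in WT and Rgn fell. In NRF2 KO, Xylb, Akr1b7 and Akr1b8 rose and Rgn fell. Akr1a1, which reduces glucuronate, rose by 0.35 ± 0.09 (edgeR adjusted p = 0.00832), and Rgn, which acts in the making of ascorbate, fell by 0.72 on the log2 scale (SE 0.13, edgeR adjusted p = 0.000563). On MR, Akr1a1 and Cryl1 were lower in NRF2 KO. Sulfonation is the neighbouring route by which the liver conjugates drugs and steroids. Of its 10 tested genes, Sult1b1 and Papss1 fell on MR in WT and none rose. In NRF2 KO, Papss2 rose and Sult1b1, Sult2a7 and Sult2a8 fell. On MR, Sult1a1, a phenol sulfotransferase, and Papss2, which makes the sulfate donor, were higher in NRF2 KO than in WT (0.53 ± 0.13 and 0.39 ± 0.09, edgeR adjusted p = 0.0199 and 0.0198).

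Among 13 regulators known to act on Ugt genes, Ahr, the receptor of aryl hydrocarbons, rose on MR in WT (0.75 ± 0.21, edgeR adjusted p = 0.0235). In NRF2 KO, Nr1i2, the pregnane X receptor, rose and Cebpa fell. On Con, Nr1h4, the bile acid receptor FXR, was higher in NRF2 KO (0.48 ± 0.09, edgeR adjusted p = 0.00304). Of 15 tested genes known to report on such regulators, Nqo1, Gclm, Txnrd1 and Abcb11 rose on MR in WT, and Nqo1, Gclm and Abcb11 in NRF2 KO. Nqo1, the quinone reductase regulated by NRF2, rose in both genotypes (1.74 ± 0.30 in WT and 1.90 ± 0.34 in NRF2 KO, edgeR adjusted p = 0.000579 and 0.00107). The NRF2-regulated Nqo1, Gclc, Txnrd1 and Srxn1 were lower in NRF2 KO on Con, and these and Gclm on MR. The reporters of AHR, PXR, CAR and PPARα that were tested (Cyp1a2, Tiparp, Cyp3a11, Cyp2b10, Cyp2b9, Cyp4a10, Cyp4a14 and Acot1) were not called by edgeR in any comparison, though DESeq2 called Cyp1a2 on MR in NRF2 KO.

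Markers of other cells moved with the diet too. Of the 5 bile duct markers, Krt7, Epcam, Sox9 and Spp1 fell on MR in WT, as did Sox9 on MR in NRF2 KO (-1.03 ± 0.17, edgeR adjusted p = 0.000502). On Con, Spp1 was lower in NRF2 KO than in WT (-0.90 ± 0.22, edgeR adjusted p = 0.0298), as were Ugdh and 3 Ugt2 genes. The summed level of the bile duct markers was 59.7 ± 11.4 CPM in WT Con, 25.4 ± 3.07 in WT MR, 40.6 ± 7.80 in NRF2 KO Con and 24.9 ± 3.38 in NRF2 KO MR, with Sox9 the most abundant. The Kupffer cell markers (Clec4f and Cd5l fell on MR in WT, and Clec4f in NRF2 KO) summed to 270.2 ± 40.1 CPM in WT Con and 203 ± 10.2 in WT MR. The stellate cell markers (Lrat, Dcn and Col1a1 fell on MR in WT, and Lrat and Col1a1 in NRF2 KO) summed to 486 ± 112 and 366 ± 43.5 CPM. The calls of Cd5l, Dcn and Retnlg, a neutrophil marker, on MR in WT were lost without the library labelled WT_CON_7607 (edgeR adjusted p = 0.0815, 0.124 and 0.0602). Of the other lists, edgeR called on MR in WT none of 5 endothelial and none of 3 lymphocyte markers (0 of each at an unadjusted p under 0.05 and 0 by DESeq2), Retnlg of 3 neutrophil and Alas2 of 5 red blood cell markers (both lower), and Apoa1 of the hepatocyte markers (lower). Of 3 intestinal markers Vil1 and Lgals4 rose and Fabp2 fell, and Vil1 rose and Fabp2 fell on MR in NRF2 KO too. In that genotype Apoa1, Alas2 and the pancreatic marker Cela1 fell on MR, and Kdr, an endothelial marker, rose. Between the genotypes on MR, where 5 Ugt2 genes were lower in NRF2 KO, edgeR called no marker of these lists but Apoa1, and DESeq2 called Apoa1 and Alb. The part of these cells in the results was not tested.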

How the data were processed

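Gene counts were deposited by the authors for 24 male mouse livers, 1 library a mouse, from 3′ QuantSeq FWD libraries run through the Lexogen pipeline on build GRCm38 (aligner and annotation not given in the sources used here). The submitters' processing notes name DESeq2 1.18.1 and R 3.4.3. A second table deposited by the authors held a normalized signal, which equalled the counts divided by 1 size factor a mouse, and served only as an alternative with limma (pseudocount 1). Columns were matched to mice by name, and 0 stayed unmatched. WT_CON_7604 and WT_MR_7612 were left out, as principal component outliers of the study.

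The 10 genes and the lists were chosen with earlier results of these data known. Counts of 22 mice were fitted with 4 group means in edgeR 4.0.16 (R 4.3.3; TMM, filterByExpr, robust quasi-likelihood F-test). The 5 comparisons were adjusted over 13336 genes by Benjamini-Hochberg, and a gene was called at an adjusted p under 0.05. The SE is the log2 fold change divided by the root of F. CPM used a prior count of 2 on the log scale. The text names all 10 genes, other tested UGT genes, genes of the lists called in any comparison, and the 3 genes most alike, and 1 gene of the supply list is not reported here. Each library is a separate mouse, so p-values measure the spread between mice. The script was tested on simulated data. Alternatives were library size or DESeq2 size factors as scaling, 2 other count filters, DESeq2 1.42.0, limma 3.58.1, all 24 mice, only the 2 groups compared, a log2 fold change of at least 1, and each mouse left out. No batch is given in the labels.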

Additional observations from a re-analysis of the deposited data

Results flagged for a closer look

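In 36 groups of 5 or 6 mice a single mouse was set against the others by Dixon's ratio, a test by which chance picks about 1 group in 20, and 4 groups held such a mouse. The library labelled WT_CON_7607 was low for Ugt2b35, at 18.9 CPM against 116 to 137 in the other WT Con mice, and for Ugt2b36, at 275 CPM against 459 to 524. Mouse WT_MR_7613 was high for Ugt2b1, at 438 CPM against 341 to 368 in the other WT MR mice, and for Ugt2b35, at 300.1 CPM against 218 to 241. What set these mice apart was not tested.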

How the results depend on the processing

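Of 347 values of the 8 genes under settings other than leaving out a mouse, 324 kept direction and call, 8 changed sign, 7 gained and 8 lost a call, and of 880 values with 1 mouse left out 853, 6, 6 and 15 did so. With only the 2 groups compared, 3 of the 8 genes were called for MR in WT (Ugt2b5 and Ugt2b35 at edgeR adjusted p = 0.0803 and 0.127). For NRF2 KO on Con that setting called 1, with Ugt2b35, Ugt2b5 and Ugt2b36 at edgeR adjusted p = 0.0628, 0.187 and 0.157. With limma on the normalized signal 2 were called for NRF2 KO on Con. For the interaction 1 was called with library size alone or all 24 mice, and 2 with DESeq2 or with all 24 mice but the library labelled WT_CON_7607, a setting added after seeing the data. A log2 fold change of at least 1 left 3 of the 8 genes for MR in WT. It also left 396 of 1843 genes for MR in WT, 304 of 1677 for MR in NRF2 KO, 70 of 276 for NRF2 KO on Con and 83 of 258 for NRF2 KO on MR. Library size alone gave 2785 genes for MR in NRF2 KO. DESeq2 gave 451, 496 and 35 genes for NRF2 KO on Con, on MR and the interaction (6 by edgeR), and only the 2 groups compared gave 114 and 596 for NRF2 KO on Con and on MR. The signs that changed belonged to small values, none of them called: Ugt1a1 for MR in WT (0.0416 with library size alone, -0.17 to 0.0956 without 1 mouse), for MR in NRF2 KO (0.20 with limma) and for the interaction (0.22 with limma), Ugt2b1 for MR in WT (0.0816 with library size alone, 0.0564 with limma, 0.0141 with all 24 mice, -0.22 to 0.19 without 1 mouse, the highest without WT_CON_7605), Ugt2b5 and Ugt2b36 for MR in NRF2 KO (0.0364 and 0.0232 with library size alone, and -0.21 to 0.0161 for Ugt2b5 without 1 mouse, the highest without KO_CON_7623), and, beside the 8 genes, summed Ugt1a for NRF2 KO on MR (-0.0034 with limma). The causes were not tested. With 1 mouse left out, genes called ranged from 1416 to 1974 (MR in WT), 1188 to 2027 (MR in NRF2 KO), 181 to 314 (NRF2 KO on Con; 181 without WT_CON_7603), 191 to 336 (NRF2 KO on MR) and 3 to 12 (interaction). Of the 8 genes 5, 3, 2 to 5, 6 and 0 to 2 were called in that order, and summed Ugt1a ranged from -0.0070 to 0.20, 0.18 to 0.39, -0.28 to -0.08, -0.10 to 0.11 and 0.09 to 0.31. No paired analysis was possible because every mouse has its own number. Depth limits the Ugt1a rows, which held as few as 5 reads in a mouse, and how reads shared by the Ugt1a genes were counted is not known.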
